A study of Mus musculus with 6 samples.

Results

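The host genes of intronic snoRNAs are genes whose introns hold small nucleolar RNAs. A set of 38 such mouse genes was examined in NG2+EGFP− cells sorted from tumors, and 32 of the 38 could be tested among 22180 genes on the arrays. The members were chosen from a list of known hosts, and each gene was represented by the probe set with the highest mean over the 6 arrays among those annotated with exactly 1 gene symbol. That mean ignores the tumor group, but the list was drawn up when a large rise of Rabggtb and of several snoRNAs was already known from these arrays, so those rises are given as a description. The hosts were kept in 3 classes, with 9 noncoding hosts, 14 ribosomal protein hosts and 15 other coding hosts. RefSeq (assembly GRCm38.p6) placed at least 1 snoRNA gene within the bounds of each of the 38 hosts, and 104 in all.

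T241 is a murine fibrosarcoma line. T241 cells that carried either an empty vector or an FGF-2 overexpression construct, together with EGFP, were grown under the skin of young adult female C57BL/6 mice. Tumors were digested with collagenase, and cells that stained for NG2 but lacked EGFP were sorted. That gate leaves out tumor cells that show EGFP. The sorted cells are called pericytes here, as in the study. There were 3 samples from vector tumors and 3 from FGF-2 tumors, each hybridized to 1 Affymetrix mouse gene array. The mice carried no engineered allele in this experiment, and the only agent that differed was the FGF-2 made by the tumor cells. The sources do not say whether a sample pooled several tumors.

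A snoRNA guides chemical modification of ribosomal and spliceosomal RNA, box C/D snoRNAs directing ribose methylation and box H/ACA snoRNAs pseudouridylation. Most snoRNAs of mammals have no promoter of their own. They are cut from introns that have been spliced out of a host transcript, so the mature snoRNA and the spliced host RNA come from the same transcript but are degraded by different routes. Noncoding hosts such as Gas5 and the Snhg genes carry short reading frames, and their spliced RNAs are short-lived substrates of nonsense-mediated decay, while many coding hosts encode ribosomal proteins and translation factors.

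Some hosts are transcribed from a start that lies in a run of pyrimidines, the 5′ terminal oligopyrimidine or TOP motif. Through this motif the translation of ribosomal protein mRNAs follows growth signals. The windows below run from 15 bases before to 15 bases after an annotated RefSeq start (GRCm38.p6, 5′ to 3′), and capitals mark a run of C and T that begins with C within 5 bases of the start and holds at least 4 more pyrimidines. They are shown because they are a feature of the hosts that the array values did not choose.
Gas5 (chr1:161035151-161035180, + strand): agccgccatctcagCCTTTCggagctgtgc
Snhg12 (chr4:132308663-132308692, + strand): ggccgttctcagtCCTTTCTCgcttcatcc
Snhg7 (chr2:26640230-26640259, − strand): gtggagatgctcggCCTCTCggcagccatg
Snhg3 (chr4:132353672-132353701, − strand): tagtcgaccacgcctgaCTTCCgggcgtta
Snhg1 (chr19:8723472-8723501, + strand): gttgttcttgtcggcctcatttttccttgt
Rpl7a (chr2:26910792-26910821, + strand): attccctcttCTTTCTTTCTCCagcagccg
Rabggtb (chr3:153912952-153912981, − strand): tgactccccgtgCTCCCgcgcgcttcagtc
Wdr43 (chr17:71616200-71616229, + strand): accccgcgccggtgcgcctgcgcccgggcg
Such a run was present for 9 of 31 hosts with a promoter in the table (29.0%), beside 21.2% of all 27025 genes. By class, it was present for 5 of 7 noncoding hosts, 3 of 10 ribosomal protein hosts and 1 of 14 other coding hosts. The 1 among the other coding hosts was Rabggtb, whose other annotated start had none. Of the ribosomal protein genes with no snoRNA inside, 20 of 37 (54.1%) had a run, so the motif was not a property of the snoRNA hosts alone. Snhg1 and Wdr43 are shown as hosts without one. The letters were searched on the transcribed strand only, and a start that is annotated a few bases off would be missed.

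The values are log2 expression levels that a service laboratory had normalized, and a difference of 1 is a doubling. Array medians lay between 5.43 and 5.48, and any pair of arrays correlated at 0.982 to 0.994 over all genes. The label of the samples is isolated perivascular cells. All 14 pericyte markers listed were measured, with a mean level of 5.96 to 6.13 in vector and 6.75 to 7.10 in FGF-2 arrays, and 6 of them rose. The 12 fibroblast markers had means of 6.38 to 7.15 and 7.91 to 8.39, with 7 risen. The 14 macrophage and monocyte markers had means of 10.62 to 11.01 and 10.73 to 10.85, with 1 fallen. On every array the macrophage and monocyte markers thus had the highest mean of these lists and the pericyte markers the lowest. The name pericytes is the study's, and the purity of the samples was not tested. Of 20 genes that respond to tissue dissociation, 3 fell (Hspa1b, Hspa1a and Fos), and their mean level was 9.12 to 9.55 in vector and 8.85 to 8.94 in FGF-2 arrays. The arrays measured all sorted cells together, so fewer cells of a type and less RNA per cell cannot be told apart. The part of these shifts in the differences below was not tested. Groups were compared with limma over 22180 genes with Benjamini-Hochberg adjustment. A gene with an adjusted p under 0.05 is said to have risen or fallen. Each SE is limma's moderated standard error, which draws on the variance of all genes fitted and not on that gene alone. Of all genes, 228 (1.03%) rose and 63 (0.284%) fell, and the median gene differed by -0.02 on the log2 scale.

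On the probe sets that represent them, host transcripts differed little between the tumors. Of the 32 host genes tested, 1 rose (Rabggtb) and 0 fell by limma, beside 1.31% of all genes changed in either direction, and 6 had an unadjusted p under 0.05, as did 14.6% of all genes. The mean was higher in FGF-2 tumors for 23 hosts and lower for 9, and the median difference was 0.10 on the log2 scale. The 3 FGF-2 arrays lay above all vector arrays for 7 hosts and below them for 1, a share of 25% where 21.2% of all genes showed no overlap (11.3% above and 9.93% below). For the 31 hosts other than Rabggtb the differences lay between -0.44 and 0.40. The 95% intervals of the fit lay between -0.73 and 0.69, so a doubling or a halving was outside each of these intervals. That bound holds for the representative probe sets only, since other probe sets of Nop56 and Taf1d differed by up to 1.15 and 1.05.

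**Figure D1:**
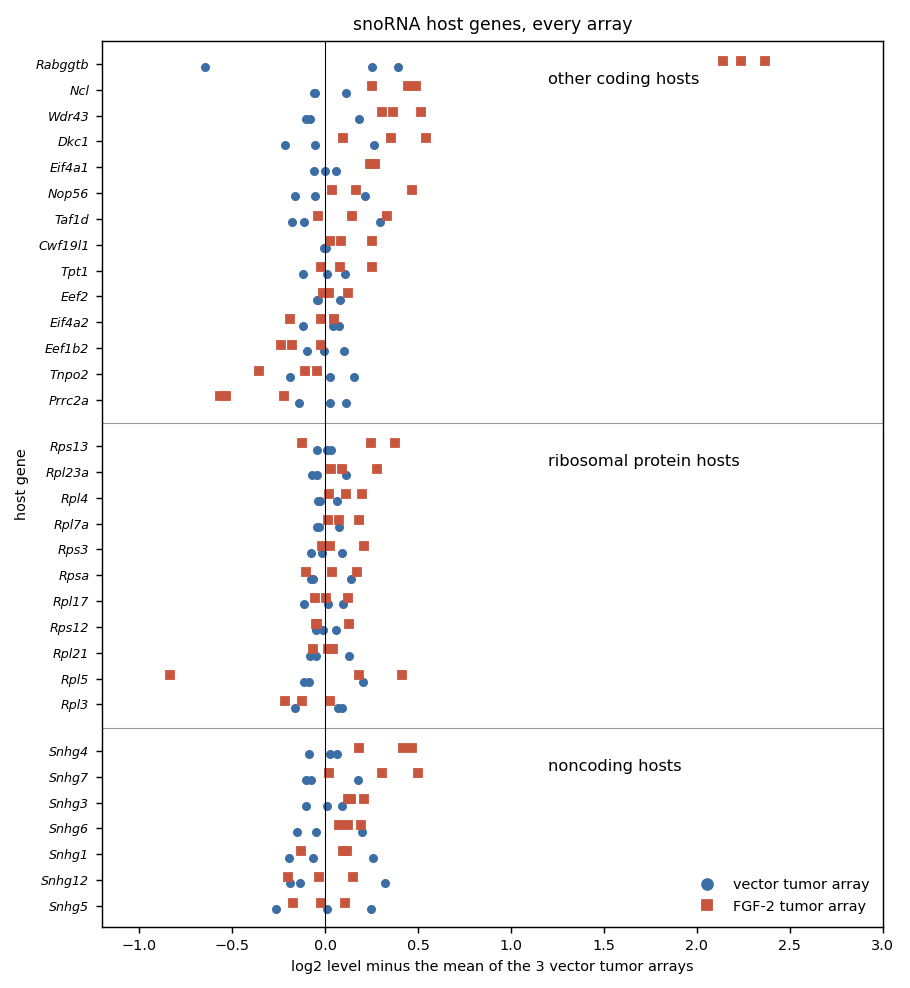
Log2 level of each of the 32 tested host genes on every array (horizontal axis), less the mean of the gene's 3 vector tumor arrays, for vector (circles) and FGF-2 tumors (squares). Most points lie within 0.5 of 0, the 3 FGF-2 arrays of Rabggtb stand more than 2 above its vector mean, and 1 FGF-2 array of Rpl5 lies far below the rest.

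Among the noncoding hosts, 7 of 9 were tested, 0 were called and 1 had an unadjusted p under 0.05 by limma, as did 14.6% of all genes. Their median difference was 0.13, and 5 means were higher in FGF-2 tumors. Snhg4 had the largest difference of the class, with log2 levels of 7.35, 7.50 and 7.46 in vector and 7.90, 7.86 and 7.62 in FGF-2 tumors. All FGF-2 arrays were above all vector arrays, and the log2 difference was 0.35 (SE 0.12, limma adjusted p = 0.204). Snhg7 stood at 6.09, 6.37 and 6.12 in vector and 6.50, 6.22 and 6.69 in FGF-2 tumors. The groups overlapped, since FGF-2 replicate 2 lay below vector replicate 2, and the log2 difference was 0.28 (SE 0.14, limma adjusted p = 0.423). Snhg3 read 7.40, 7.20 and 7.31 in vector and 7.44, 7.51 and 7.43 in FGF-2 tumors. These groups were separate but by a narrow margin, and the difference was 0.16 (limma adjusted p = 0.534). The mean of Snhg6 was 8.49 in vector and 8.62 in FGF-2 tumors, and that of Snhg1 was 8.48 and 8.51. Snhg5 (7.94 and 7.91) and Snhg12 (6.30 and 6.28) were the members of the class with a lower mean in FGF-2 tumors, each by 0.03. In none of these 4 did the groups separate.

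The ribosomal protein hosts spanned the narrowest range of differences, from -0.10 to 0.17. Of 11 tested, 0 were called, beside 1.31% of all genes, and 0 had an unadjusted p under 0.05 in limma, beside 14.6%. The groups failed to overlap for 0 of the 11, beside 21.2% of all genes, and the median difference was 0.04. Rps13, of the small subunit, had the largest difference, at 8.25, 8.30 and 8.32 in vector and 8.53, 8.16 and 8.66 in FGF-2 tumors. FGF-2 replicate 2 lay below every vector array and the other FGF-2 arrays above them, and the log2 difference was 0.17 (SE 0.14, limma adjusted p = 0.630). The large subunit gene Rpl23a stood at 10.89, 10.86 and 11.04 in vector and 11.02, 10.96 and 11.20 in FGF-2 tumors, a difference of 0.13. Rpl4 went from a mean of 12.12 to 12.23 (difference 0.11), with values of 12.08, 12.09 and 12.18 in vector and 12.23, 12.14 and 12.32 in FGF-2 tumors. In both genes the groups overlapped. Of the small subunit hosts, Rpsa had means of 11.44 and 11.48, Rps3 of 10.54 and 10.61, and Rps12 of 11.71 and 11.72. Of the large subunit hosts, Rpl7a had means of 11.35 and 11.44, Rpl17 of 6.52 and 6.55, and Rpl21 of 12.64 in both groups. Rpl3 was lower in FGF-2 tumors, with means of 9.85 and 9.75. Rpl5 had means of 6.63 and 6.55 and the widest spread of any host, since FGF-2 replicate 2 read 5.80 against 6.81 and 7.05 in the other FGF-2 arrays.

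Of the 14 other coding hosts tested, 1 rose and 0 fell, 5 had an unadjusted p under 0.05 in limma, beside 14.6% of all genes, and the groups did not overlap for 6 (42.9%), with 5 higher in FGF-2 tumors, beside 21.2% of all genes. The median difference was 0.13. Rabggtb, which encodes the catalytic beta subunit of the enzyme that attaches geranylgeranyl groups to Rab proteins, read 5.17, 5.32 and 4.28 in vector and 7.16, 7.29 and 7.06 in FGF-2 tumors. The FGF-2 arrays agreed closely and stood well above all vector arrays, among which replicate 3 was the lowest. The mean went from 4.92 ± 0.56 to 7.17 ± 0.11 (SD, n = 3 per group), a log2 difference of 2.25 (SE 0.24, limma adjusted p = 0.00302) or 4.74-fold. It passed whichever array was left out, with a log2 fold change of 1.92 to 2.44 and an adjusted p of 0.0256 at most.

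The next differences of this class were much smaller and did not pass. Prrc2a, an RNA-binding protein gene, read 9.22, 9.38 and 9.47 in vector and 9.13, 8.79 and 8.82 in FGF-2 tumors. It was the 1 tested host with all FGF-2 arrays below the vector arrays, by a log2 difference of -0.44 (SE 0.13, limma adjusted p = 0.161). Ncl, the gene of the nucleolar protein nucleolin, read 10.24, 10.24 and 10.41 in vector and 10.74, 10.55 and 10.78 in FGF-2 tumors. The groups were separate, with a log2 difference of 0.40 (SE 0.11, limma adjusted p = 0.153). Wdr43, which encodes a component of the machinery that processes the small-subunit rRNA, had a mean of 9.74 in vector and 10.13 in FGF-2 tumors, also without overlap, and a difference of 0.40 (limma adjusted p = 0.175). Eif4a1, the helicase of translation initiation, was separate as well, with means of 13.05 and 13.30 and a difference of 0.26 (limma adjusted p = 0.282). Cwf19l1 was separate by little, at 7.69 and 7.81.

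Of the hosts that encode snoRNP proteins, Dkc1 (dyskerin, the pseudouridine synthase of box H/ACA particles) had means of 8.66 and 8.99, and Nop56 (a core protein of box C/D particles) of 9.97 and 10.20. Taf1d, a subunit of the RNA polymerase I selectivity factor, had means of 11.38 and 11.53. The groups overlapped in each of the 3. The translation factor gene Eef2 had means of 11.97 and 12.02, and Tpt1 of 9.20 and 9.30. Eif4a2 (8.98 and 8.93), Eef1b2 (11.13 and 10.98) and the import receptor gene Tnpo2 (8.54 and 8.37) had the lower mean in FGF-2 tumors, each with overlap. For Eif4a2 this held for the representative probe set only. Its other probe sets with 1 symbol were higher in FGF-2 tumors, by 0.54 and 0.35, without overlap, and did not pass.

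The remaining 6 members were not tested because all of their probe sets carried several gene symbols. The probe set of Gas5, shared with Mir5117, read 6.91, 6.54 and 6.66 in vector and 7.33, 6.86 and 7.20 in FGF-2 tumors, a difference of 0.43 (SE 0.15), and FGF-2 replicate 2 lay below vector replicate 1. That of Snhg8, shared with Snora24, differed by 0.16. The probe sets of Rpl12 differed by 0.11 to 0.24, those of Rpl13a by -0.17 to 0.41, those of Rpl23 by -0.08 and 0.01, and those of Cnot1, the scaffold of the CCR4-NOT deadenylase, by -0.003 and 0.25. Fitted over all 33793 probe sets, none of these passed, where 0.808% of probe sets rose and 0.192% fell.

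Probe sets of the same host did not always differ alike. The 38 hosts had 91 distinct probe sets, and 21 hosts had several. Of the 91, 6 rose and 0 fell in the fit over all probe sets, where 0.808% of all probe sets rose and 0.192% fell. All FGF-2 arrays were above all vector arrays on 26 of the 91 and below them on 3, where 9.8% and 9.73% of all probe sets were. In 9 of these 21 hosts the probe sets had differences of both signs. Rabggtb had a second probe set, annotated with both Rabggtb and Snord45c, that read 7.20, 7.07 and 7.29 in vector and 7.57, 7.46 and 7.56 in FGF-2 tumors. All FGF-2 arrays were above the vector arrays there too, but the log2 fold change was 0.34 (SE 0.11) against 2.25 for the probe set with 1 symbol. With probe sets of several symbols allowed, this one represented the gene and its adjusted p was 0.185 in limma, so the call of the only host that rose rests on 1 probe set. None of the snoRNA genes inside Rabggtb could be tested apart from it. Nop56 differed by 0.22 on its representative probe set, but by 1.15, 1.05 and, for the one also annotated with Snord57, 0.82 on the others, all of which rose in the probe set fit (limma adjusted p = 0.0359, 0.0167 and 0.0296). The probe set of Nop56 with a change of 1.15 read 8.02, 7.76 and 8.21 in vector and 9.14, 9.55 and 8.75 in FGF-2 tumors, with no overlap.

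Taf1d, whose gene holds several snoRNAs, had 12 distinct probe sets, with differences from -0.38 to 1.05. The 1 that passed went from a mean of 5.33 to 6.30. Rps3 differed by 0.07 on its own probe set and by 1.08 on the one shared with Snord15b, and Rpl5 by -0.08 on its own and by 0.76 on the one shared with the pseudogene Rpl5-ps2 (limma adjusted p = 0.0410 over probe sets). The probe sets of Snhg7 that name Snora43 or Snora17 as well differed by 0.78 to 0.94, against 0.28 for Snhg7 alone. Rpl21 differed by -0.001 on its representative probe set and by -0.01 and 0.24 on its others with 1 symbol. On the probe sets that it shares with several other symbols it differed by 0.87 and 0.76. The groups did not overlap on the Rpl21 probe sets at 0.24, 0.87 and 0.76, and none of these passed. In contrast, the probe sets of Rpsa, Tpt1, Rpl4, Eif4a1, Rpl23a, Rpl7a and Rps12 differed among themselves by less than 0.1 within each gene. Where the probes of a probe set lie within a gene, in exons or in introns, was not given in the sources used here, and the part of probe position in these differences was not tested.

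**Figure D2:**
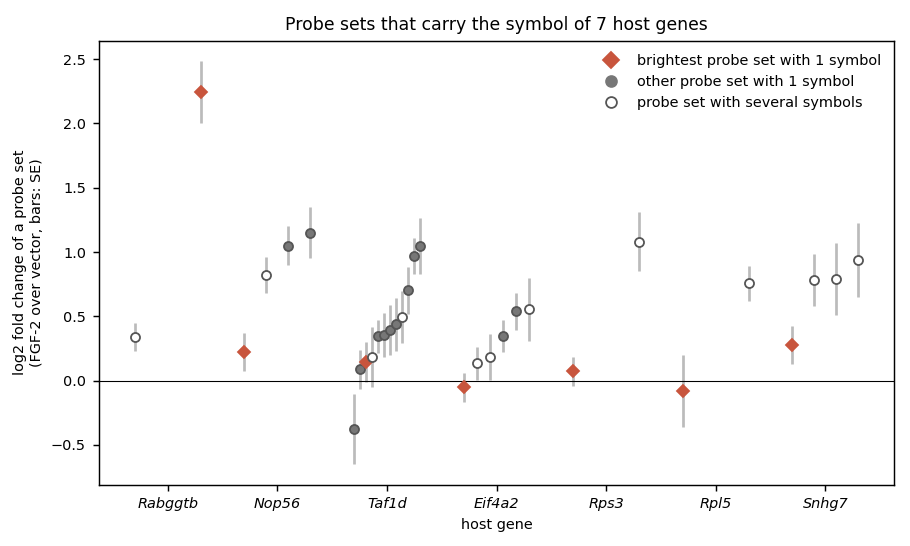
Log2 fold change (vertical axis, FGF-2 over vector tumors, bars SE) of every distinct probe set that carries the symbol of 7 hosts. The diamonds are the probe sets that represent the gene, and open circles carry several symbols. Diamonds other than that of Rabggtb lie between -0.08 and 0.28, while other probe sets of the same genes reach 1.15.

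The snoRNAs that lie inside these hosts differed more than the hosts did. Of the 104 snoRNA genes, 46 had a name other than a systematic one and 28, in 21 hosts, could be tested. Of these 28, 6 rose and 0 fell by limma, beside 1.03% and 0.284% of all genes, 21 had an unadjusted p under 0.05, and the mean was higher in FGF-2 tumors for 26. The median difference was 0.76 on the log2 scale. All FGF-2 arrays were above all vector arrays for 18 and below them for 2, a share of 71.4% where 21.2% of all genes showed no overlap. In 25 cases, over 18 hosts, both the host and the snoRNA were tested. With the sign kept, the difference of the snoRNA was above that of the host in 22 of the 25. The snoRNA difference less the host difference had a median of 0.70 over the 25. The median difference was 0.77 over these 25 snoRNAs and 0.09 over their 18 hosts, each host counted once. Across the 25 cases the log2 fold changes of host and snoRNA correlated at r = 0.12 (Spearman's rho 0.13), as a description over genes measured on the same arrays, where several snoRNAs share a host.

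**Figure D3:**
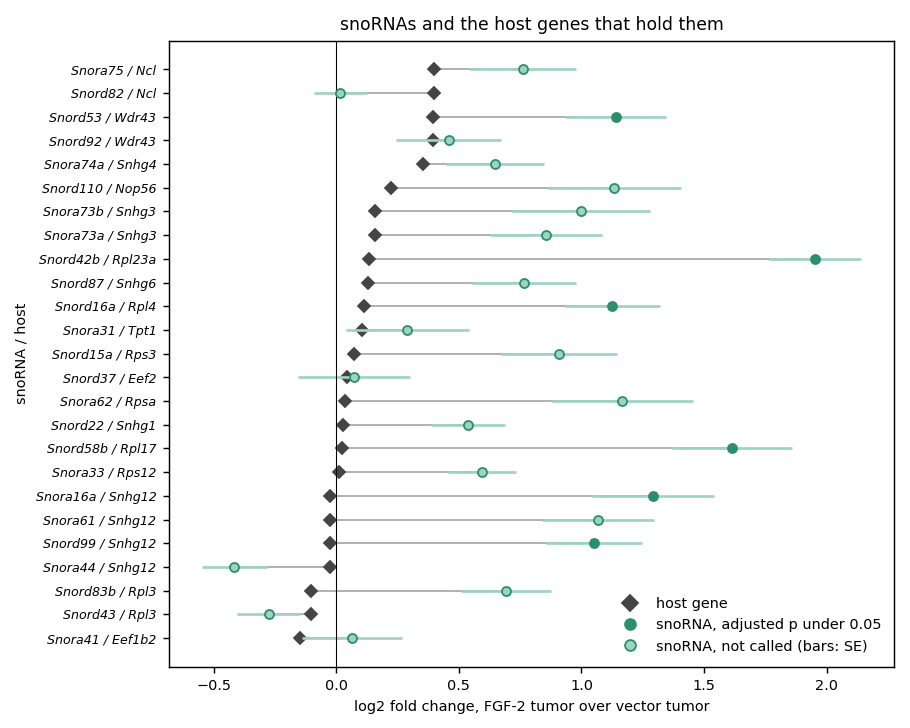
Log2 fold change (horizontal axis, FGF-2 over vector tumors) of 25 snoRNAs (circles, bars SE, filled where the adjusted p was under 0.05) and of the host genes that hold them (diamonds). The hosts lie between -0.15 and 0.40, and 22 of the 25 snoRNAs lie to the right of their host.

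The largest rise was that of Snord42b in Rpl23a. It read 7.28, 6.46 and 6.73 in vector and 8.82, 8.86 and 8.65 in FGF-2 tumors, far apart in every array, with a log2 difference of 1.95 (SE 0.19, limma adjusted p = 0.00227). The host Rpl23a differed by 0.13. Snord58b in Rpl17 read 7.55, 7.11 and 6.44 in vector and 8.75, 8.41 and 8.77 in FGF-2 tumors. The groups were separate, with a log2 difference of 1.61 (SE 0.25, limma adjusted p = 0.0154), while Rpl17 differed by 0.03. Snord16a in Rpl4 read 9.11, 9.09 and 8.35 in vector and 9.91, 9.94 and 10.08 in FGF-2 tumors, a log2 difference of 1.13 (SE 0.19, limma adjusted p = 0.0282), against 0.11 for Rpl4. Vector replicate 3 was the low array here, and the FGF-2 arrays stood close together.

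Snord53 in Wdr43 read 7.79, 7.50 and 7.93 in vector and 8.57, 9.36 and 8.71 in FGF-2 tumors. There was no overlap, and the log2 difference of 1.14 (SE 0.20, limma adjusted p = 0.0325) compared with 0.40 for Wdr43. Snord92 in the same host had means of 4.18 and 4.64 and did not pass. Ncl likewise held a pair of tested snoRNAs that differed, as Snora75 went from a mean of 9.89 to 10.66 with overlap, and Snord82 from 11.16 to 11.18. Snord82 was thus 1 of the 3 snoRNAs whose difference, with its sign, lay below that of the host. Snord110 in Nop56 had means of 9.78 and 10.92, a difference of 1.13 (limma adjusted p = 0.0886), and Snora62 in Rpsa of 10.04 and 11.20, a difference of 1.17 (limma adjusted p = 0.0997).

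Snhg12 held 4 tested snoRNAs with unequal differences. Snora16a read 9.57, 9.26 and 8.81 in vector and 9.98, 10.89 and 10.64 in FGF-2 tumors (log2 fold change 1.29, SE 0.25, limma adjusted p = 0.0427). Snord99 read 9.67, 9.62 and 8.88 in vector and 10.50, 10.34 and 10.49 in FGF-2 tumors (log2 fold change 1.05, SE 0.20, limma adjusted p = 0.0391). Both were separate between the tumors. Snora61 had a difference of 1.07 (limma adjusted p = 0.0627). Snora44 read 9.82, 9.70 and 9.96 in vector and 9.19, 9.58 and 9.46 in FGF-2 tumors, so that all FGF-2 arrays were below the vector arrays, with a log2 difference of -0.42 (SE 0.13, limma adjusted p = 0.189). Snhg12 itself differed by -0.03. In Rpl3, similarly, Snord83b differed by 0.69 and Snord43 by -0.27, the latter with no overlap, and neither passed.

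By class of host, 10 tested snoRNAs of noncoding hosts had a median difference of 0.81 with 2 risen, 10 of ribosomal protein hosts one of 0.93 with 3 risen, and 8 of other coding hosts one of 0.37 with 1 risen. Of all genes, 1.03% rose. The differences between classes were not tested. Among the noncoding hosts, Snord47 in Gas5 had means of 10.53 and 11.23 and Snord22 in Snhg1 of 10.80 and 11.34, both without overlap. In Snhg3, Snora73b had means of 9.42 and 10.42 and Snora73a, a copy of the same snoRNA, of 8.94 and 9.79. Snora74a in Snhg4 differed by 0.65 and Snord87 in Snhg6 by 0.77. None of these passed. Among the coding hosts, Snord37 in Eef2 (0.07), Snora41 in Eef1b2 (0.06), Snora31 in Tpt1 (0.29) and Snora21 in Rpl23 (0.12) differed little, as did Snord82, and in each of these the groups overlapped. Snord15a in Rps3 (0.91), Snora33 in Rps12 (0.60) and Snord35a in Rpl13a (0.96) were separate but did not pass.

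Of the 6 rises among the snoRNAs, all but that of Snord42b depended on single arrays more than that of Rabggtb did. Without vector replicate 2 the number risen was 3, and without FGF-2 replicates 1, 2 and 3 it was 2, 1 and 2. Snord42b passed whichever array was left out (adjusted p at most 0.0222), whereas the other 5 each reached an adjusted p of 0.0927 to 0.169. In all 12 box H/ACA snoRNAs tested, FGF-2 replicate 2 was the highest FGF-2 array, as it was in 10 of 16 box C/D snoRNAs, and vector replicate 3 was the lowest vector array in 7 and 12. The mean over the 28 snoRNAs was 8.92, 8.75 and 8.49 in vector and 9.29, 9.68 and 9.36 in FGF-2 tumors. Over the 31 hosts other than Rabggtb it was 9.46, 9.43 and 9.57 in vector and 9.59, 9.47 and 9.65 in FGF-2 tumors. The array with the lowest snoRNA mean in vector tumors was thus the one with the highest host mean, and FGF-2 replicate 2 had the highest snoRNA and lowest host mean of its group. The 45 named snoRNAs that lie outside these hosts had a median difference of 0.67. Of these, 14 rose and 0 fell, beside 1.03% and 0.284% of all genes, so a shift was seen outside these hosts too.

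Other snoRNA hosts gave a like picture. RefSeq placed snoRNA genes within 443 further genes, of which 340 were tested and 4 rose and 0 fell, beside 1.03% and 0.284% of all genes. Their median difference was 0.04, and 25.3% had no overlap, beside 21.2% of all genes, so both shares were near those of all genes. In a list of 14 further noncoding hosts, 13 were tested and 1 passed. This was Rian, an imprinted noncoding RNA that holds a large snoRNA array, with a mean of 3.96 in vector and 5.45 in FGF-2 tumors (log2 fold change 1.49, SE 0.19, limma adjusted p = 0.00612). Snhg17 differed by 1.10 (limma adjusted p = 0.0593), Snhg18 by 0.61 and Dancr by -0.40, and the median of the 13 was 0.04. Ribosomal protein genes with no snoRNA inside had 0 of 36 called and a median of 0.01, beside 0 of 11 and 0.04 in the ribosomal protein hosts.

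Genes that act on snoRNAs and hosts had small differences as well, and none passed. The box C/D particle genes (11 tested, median 0.22) included Rpap3, an assembly factor, at 0.35 and Nop58 at 0.24. The box H/ACA particle genes (6 tested, median 0.23) were all higher in FGF-2 tumors, with Nop10 at 0.27 and Nhp2 at 0.25 after Dkc1, and with overlap in each. Of the genes of nonsense-mediated decay, 9 were tested with a median of -0.04, among them the helicase gene Upf1 at -0.41 and its partner Upf2 at 0.36, each without overlap. The 9 genes of snoRNA trimming and intron turnover had a median of 0.19, led by the exonuclease gene Xrn2 at 0.33. Among 21 genes of RNA polymerase I transcription and rRNA processing, which include Ncl, Taf1d and Wdr43, 18 means were higher in FGF-2 tumors and the median was 0.15. Taf1a differed by 0.56 (limma adjusted p = 0.0895) and Utp20 by 0.47. Of the 10 growth and MYC genes, 9 means were lower in FGF-2 tumors, with a median of -0.16, Ccnd1 at -0.42 and Myc at -0.36. The cell cycle genes leaned the other way, since 10 of 11 tested means were above those of vector tumors, with a median of 0.18. Among 12 tested TOP genes of translation outside the hosts, 5 means were above and 7 below, with a median of -0.03.

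**Figure D4:**
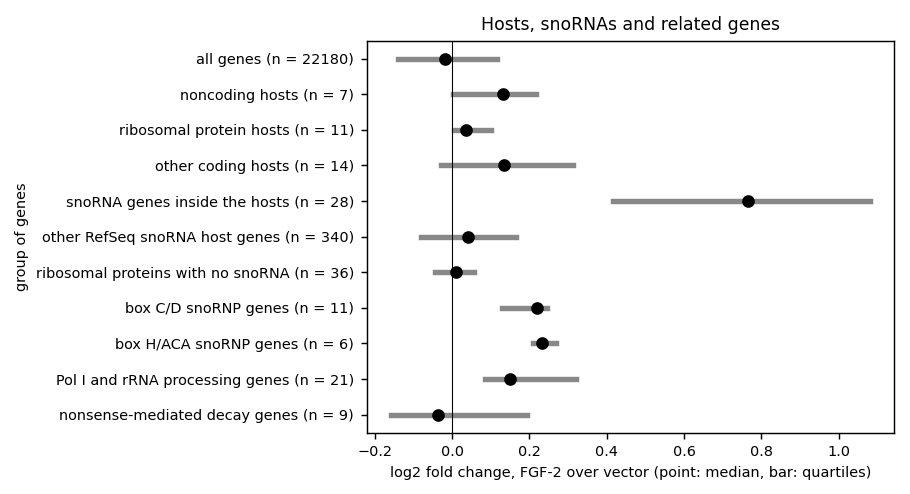
Median (point) and quartiles (bar) of the log2 fold change, FGF-2 over vector tumors, for groups of genes, with the number tested. The median of the snoRNA genes inside the hosts is 0.76, and the medians of the other groups lie between -0.04 and 0.23.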

How the data were processed

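The values were deposited by the authors as log2 expression levels on Affymetrix mouse gene arrays, 3 per group, after hybridization and normalization by a service laboratory. Affymetrix Expression Console is named, and the summarization and background method is not given in the sources used here. No normalization was added. Arrays have no read depth, and their number limits the precision. Of 33793 probe sets, 23521 carried 1 symbol, 1820 several and 8452 none, and the brightest of the former represented each of 22180 genes (1082 had several).

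The groups were compared in R 4.3.3 with limma 3.58.1 (two-sided, Benjamini-Hochberg over all genes). An exact permutation test of 3 against 3 cannot go below p = 0.1 (10 regroupings). The test was checked on simulated data. A second fit used all probe sets. snoRNA genes were assigned to a host by containment in RefSeq gene bounds without strand, since the table gives none, so a snoRNA on the opposite strand would be counted, and coordinates served for neighbourhood only. Sequences are RefSeq's.

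The members, lists and named genes were chosen with earlier results of these data known. Named were all members, the 3 largest differences per class with every array, snoRNAs that passed or were largest, and up to 4 genes per list. Further members of the pairs and Snora44 and Snord43 were named after their values were seen. Nothing shows that the samples came from separate mice beyond the label of biological replicates, and p-values measure the spread between these samples. Alternatives were a replicate block, quantile normalization, median centring, filters on low values, other uses of probe sets, a trended robust prior, array weights, the Student test of the study's methods, a test of every probe set, and leaving out single arrays.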

Additional observations from a re-analysis of the deposited data

How the results depend on the processing

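Neither the labels nor the methods pair the samples by replicate number. Same-numbered arrays deviated from their group means with correlations of -0.02, 0.19 and 0.26, and differently numbered ones with -0.26 to 0.13. The values for replicates 2 and 3 were thus above all those of differently numbered arrays, and a shared replicate effect was not tested. With the replicate block 494 genes were called against 291 without it, 1 host as before, and 11 of the snoRNAs inside the hosts against 6. Array quality weights called 554 genes and 7 of the other RefSeq hosts against 4, and limiting the genes to those over the median level, or to means of at least 5, gave 2 of the latter each. The Student test of the methods, after Benjamini-Hochberg adjustment, called 2 genes, 0 hosts, 0 other coding hosts, 0 snoRNAs inside the hosts and 0 other RefSeq hosts, with an adjusted p of 0.197 for Rabggtb. The mean of the probe sets of a gene called 2 hosts, both other coding hosts, as Nop56 joined Rabggtb at a difference of 0.81 (limma adjusted p = 0.0155). With probe sets of several symbols included, 0 other coding hosts and 1 ribosomal protein host passed, since Rabggtb went to 0.34 (limma adjusted p = 0.185) and Rpl5 from -0.08 to 0.76 (limma adjusted p = 0.0344). Tested probe set by probe set, a fit added after seeing the data, 4 hosts had a probe set that passed, 1 of them a ribosomal protein host and 3 other coding hosts. The settings for the snoRNAs and for the other RefSeq hosts were likewise added after seeing the data. With 1 array left out the number of genes called ran from 75 to 439, of hosts from 1 to 1, of snoRNAs inside the hosts from 1 to 6 and of other RefSeq hosts from 3 to 7. Of the 32 hosts tested, 9 changed sign under at least 1 alternative, none of them with a difference over 0.08 in size.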
